A study of Mus musculus with 2 samples.

Results

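The genes described here encode the translation initiation factors of the mouse and their direct regulators. They were chosen by name: every autosomal or X-linked protein-coding gene whose symbol starts with Eif and a digit from 1 to 6, which takes in the kinases of eIF2 (Eif2ak) and the binding proteins of eIF4E (Eif4ebp). The rule found 54 of the 21951 protein-coding genes in the annotation. Of these, 53 held at least 1 position listed by an m6A tool in their exons. Together they held 1296 of the 160430 unique positions in all lists. A position was a unique chromosome, base and strand inside an annotated exon on the same strand.

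Initiation factors bring the initiator tRNA and the small ribosomal subunit to the capped end of an mRNA, move them to the start codon and then let the large subunit join. The step is controlled mainly through phosphorylation of the alpha subunit of eIF2, which blocks its recycling by eIF2B, and through the eIF4E-binding proteins, which keep the cap-binding protein eIF4E away from the scaffold eIF4G. N6-methyladenosine (m6A) is a methyl mark placed on adenosines of mRNA by a complex whose catalytic subunit is Mettl3, mostly within RRACH sequences (R is A or G, H is A, C or T).

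Poly(A) RNA of mouse 129 embryonic stem cells was read by nanopore direct RNA sequencing, in which native RNA molecules pass through a pore and modified bases alter the current or the base calls. The groups were wild type (WT) cells and Mettl3 knockout (KO) cells, in which resistance genes replaced exons 5 to 7 of Mettl3 by CRISPR-Cas9 editing, and each group was 1 library without replicates. Of 10 tools, 7 (ELIGOS, Epinano, MINES, m6Anet, Nanom6A, Tombo and xPore) gave a list of positions for WT and another for KO, and the other 3 (Nanocompore, DiffErr and DRUMMER) gave a single list from comparing WT with KO. xPore fits WT and KO reads in a joint model, so its WT and KO lists did not arise independently of each other. Tools also share steps. MINES takes values computed by Tombo as input, and Nanom6A uses signal assigned to bases by Tombo. m6Anet, Nanocompore and xPore start from the same program for aligning signal. A number of tools at a position is therefore not a number of independent calls. The 17 lists held positions without read depth, methylation rate or score, so fewer reads and fewer modified molecules cannot be told apart. All intervals below are 95% intervals for counting error only. The paper reports similar read totals for both libraries. By mass spectrometry it found m6A virtually absent from the KO mRNA, and it read the many KO calls as implying prevalent false positives. A listed position below is a tool's call, in either library, and not a measured m6A base.

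The labels were checked on Mettl3 itself. Exons 5 to 7, numbered on the coding transcript with 11 exons, held 2 positions in the WT lists (Tombo and ELIGOS) and 0 in the KO lists. The rest of the gene held 11 positions in WT and 5 in KO. Counts this small cannot settle the labels on their own. All 7 stem cell markers examined (Pou5f1, Nanog, Sox2, Zfp42, Esrrb, Dppa5a and Tdgf1) held positions in both libraries, 196 in WT or comparison lists and 164 in KO lists. Of 6 markers of fibroblast feeder cells, Thy1 held 3 WT positions and 1 KO position, Col1a1 held 3 KO positions, and Col1a2, Col3a1, Postn and Pdgfra held none. Among 3 neural markers only Tubb3 was listed, with 3 WT and 4 KO positions. Among 5 mesoderm or endoderm markers only Sox17 was listed, with 12 WT positions and 0 KO positions.

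The initiation factor mRNAs were listed broadly in both libraries. A WT or comparison position was present in 50 of the 54 genes (92.6%, 95% Wilson interval 82.5 to 97.1), against 42.2% of all protein-coding genes in the annotation, and a KO position in 53 of the 54 (98.1%, 90.2 to 99.7), against 42.9%. The genes with any position held a median of 21 positions in WT or comparison lists and 19 in KO lists, and all protein-coding genes with any position held medians of 11 and 9. Of the 53 genes with a position, WT or comparison positions outnumbered KO positions in 31 (58.5%, 45.1 to 70.7), equalled them in 7 and were fewer in 15 (28.3%, 17.97 to 41.6). Over all protein-coding genes with a position these cases made up 62%, 9% and 29%. In all, 1146 positions were in WT or comparison lists and 1056 in KO lists, a ratio of 0.922 (exact binomial interval 0.847 to 1.003), and the ratio in other protein-coding genes was 0.833 (0.826 to 0.840). No position in these genes was in a comparison list alone, so all 1146 were also in a WT list of some tool. The intervals of these ratios count WT and KO positions separately. A paired interval, chosen after seeing the data, holds the 906 bases shared by both libraries fixed and compares the 240 in WT or comparison lists alone with the 150 in KO lists alone, and it ran from 0.890 to 0.955. Neither kind allows for bases of a gene sharing its reads.

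Most WT positions in initiation factor genes were listed in KO as well. In no KO list were 240 of the 1146 positions (20.9%, 18.7 to 23.4), against 40.9% over all protein-coding genes. In the other direction, 150 of the 1056 KO positions (14.2%, 12.2 to 16.4) were in no WT or comparison list, and this share was 29.2% in other protein-coding genes.

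The size of the difference between WT and KO depended on the tool. ELIGOS, which tests base-call errors, listed 40 WT and 10 KO positions in these genes, a ratio of 0.25 (0.112 to 0.509). Epinano, which also reads base-call errors, fell from 194 to 82, a ratio of 0.423 (0.322 to 0.550). m6Anet, a classifier of current signal, listed 226 and 134, a ratio of 0.593 (0.475 to 0.737), and Nanom6A 748 and 662, a ratio of 0.885 (0.796 to 0.984). The intervals of these 4 tools lay below 1. For MINES, with 70 and 49 positions (0.70, 0.476 to 1.02), xPore, with 49 and 36 (0.735, 0.464 to 1.15), and Tombo, with 530 and 496 (0.936, 0.826 to 1.06), the intervals held 1. Paired by base, the intervals of MINES (0.549 to 0.917) and Tombo (0.882 to 0.995) lay below 1 too, and that of xPore (0.541 to 1.03) still held it. With positions counted once per line of a list, xPore gave 57 and 36, a ratio of 0.632 (0.404 to 0.975), and MINES 96 and 65 (0.677, 0.486 to 0.937). Without the regulators MINES gave 55 and 33 positions, a ratio of 0.60 (0.377 to 0.940). The ratios in other protein-coding genes lay inside the intervals of the initiation factor genes for 6 of the 7 tools. The exception was xPore, whose ratio elsewhere was 0.441 (0.420 to 0.463), below the lower bound of 0.464. With paired intervals the ratios elsewhere also lay below those of Nanom6A (0.857 to 0.918, against 0.828 elsewhere) and Epinano (0.347 to 0.522, against 0.338), and inside those of the other 4 tools.

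**Figure D1:**
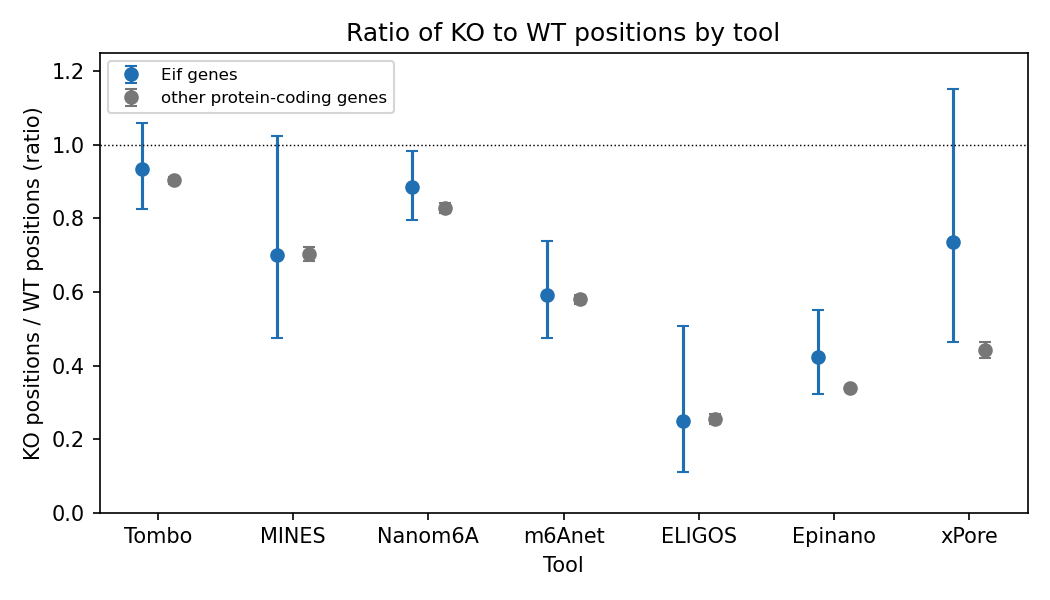
Ratio of KO to WT positions for each of the 7 tools with a list for both libraries (y axis, from 0) in the Eif genes (blue) and in other protein-coding genes (grey). Points are ratios and bars exact 95% binomial intervals for counting error; in the Eif genes ELIGOS is lowest at 0.25 and Tombo highest at 0.936, and the dotted line marks equal numbers.

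The tools also differed in how often the same base was listed again. Nanom6A listed 614 of its 748 WT positions in KO too (82.1%, 79.2 to 84.7), and Tombo 393 of 530 (74.2%, 70.3 to 77.7). In other protein-coding genes these shares were 64.6% and 59.9%. The share was 44.2% (37.9 to 50.8) for m6Anet, 42.9% for MINES, 40.8% for xPore, 20.1% (15.1 to 26.3) for Epinano and 12.5% (5.46 to 26.1) for ELIGOS, with 34.4%, 40.4%, 24.7%, 16.6% and 11.4% in other protein-coding genes. In Nanom6A, Tombo, m6Anet and xPore the share elsewhere lay below the interval of the initiation factor genes, and in MINES, Epinano and ELIGOS it lay within it.

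Factors of start codon selection formed a group of 6 genes with 107 WT or comparison and 112 KO positions. Eif5, the GTPase-activating protein of eIF2, held 33 positions in WT or comparison lists and 28 in KO lists, and 3 of them were in comparison lists. Eif1, which guards against initiation at wrong codons, held 13 and 16, and each of its 13 WT positions was also in a KO list. Eif1a and its X-linked counterpart Eif1ax encode near-identical proteins that promote scanning. Eif1ax held 23 WT and 16 KO positions and none in a comparison list, while Eif1a held 17 and 23, with 6 in comparison lists. In Eif1a the tools moved in opposite directions: m6Anet went from 9 to 1, Epinano from 5 to 0, xPore from 5 to 1 and ELIGOS from 4 to 0, whereas Nanom6A went from 10 in WT to 18 in KO. The comparison-list positions of Eif1a all lay in the last of its 3 exons. Eif1b, a paralog of Eif1, held 7 and 8. Eif1ad, placed in this group by its symbol, held 14 and 21.

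Initiator tRNA delivery was represented by 5 genes with 134 WT or comparison and 114 KO positions. The subunits of eIF2 itself held 27 WT and 18 KO positions in Eif2s1 (alpha, the phosphorylated subunit), 39 and 38 in Eif2s2 (beta) and 28 and 21 in Eif2s3x (gamma, which binds the tRNA). Eif2s2 had 5 positions in comparison lists and Eif2s1 had 3, while Eif2s3x had 0. Eif2a, which is not a subunit of eIF2 but can bind initiator tRNA on its own, held 23 and 19. Its ELIGOS positions went from 5 to 2 and its Epinano positions from 8 to 1. Eif2d, another factor that can place tRNA on the small subunit, held 17 and 18, with 0 in comparison lists.

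The exchange factor eIF2B, which reloads eIF2 with GTP, has 5 subunits, and their genes held 80 WT or comparison and 77 KO positions. Only Eif2b1, for the alpha subunit, had comparison-list positions. It had 4, all within the last of its 9 exons. Nanom6A listed 15 positions in Eif2b1 in WT and 10 in KO, and m6Anet 6 and 1, whereas Tombo listed 8 and 9. Eif2b5, for the catalytic epsilon subunit, had 23 WT positions, all of which a KO list also held, and 27 KO positions. Eif2b2 held 14 and 11, Eif2b3 16 and 10, and Eif2b4 12 and 12.

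The eIF2 kinases differed widely among themselves, with 57 WT and 47 KO positions in 4 genes. Eif2ak3 (PERK, the kinase of endoplasmic reticulum stress) held 37 WT positions and 11 KO positions, and 27 of the WT positions were in no KO list. In it m6Anet went from 12 positions to 0, Epinano from 12 to 1, Tombo from 24 to 11 and ELIGOS from 4 to 0. Eif2ak4 (GCN2, which senses uncharged tRNA) went the other way, with 0 WT positions and 22 KO positions, of which 14 were listed by Tombo, 8 by Epinano and 7 by MINES. Eif2ak1 (HRI, the heme-regulated kinase) held 18 and 10. Eif2ak2 (PKR, activated by double-stranded RNA) held 2 and 4, with no base in common. None of the 4 kinases had a position in a comparison list.

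Genes listed in 1 library only were sought after these values were seen. At least 10 KO positions and no WT or comparison position were found in 2 of the 53 genes with any position, Eif2ak4 and Eif4e1b, against 1.38% of all protein-coding genes with any position. The reverse, at least 10 WT or comparison positions and no KO position, was found in 0 of the 53, against 1.67%.

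The 14 genes for subunits of eIF3, the large complex that holds the small ribosomal subunit, had 340 WT or comparison and 299 KO positions. Of their RRACH positions 42.9% were in a WT or comparison list, the highest share among the 8 groups of genes. Eif3h reached 88.0% (70.0 to 95.8, 25 RRACH positions) and Eif3c 87.3% (76.0 to 93.7, 55 RRACH positions), while Eif3j1 reached 16.7% (10.4 to 25.7, 90 RRACH positions). Eif3c, for a core subunit, held 48 WT and 44 KO positions, and Eif3b, for another core subunit, 36 and 29. Eif3a, for the largest subunit, held 34 and 23. Its MINES positions went from 3 to 0, its Epinano positions from 6 to 0 and its m6Anet positions from 8 to 3. In Eif3f (14), Eif3g (27), Eif3h (22) and Eif3m (22) the WT and KO lists held the same bases, with no position in 1 library alone. Comparison lists held positions in 5 of the 14 genes: 3 in Eif3a, 2 in Eif3b and 1 each in Eif3h, Eif3l and Eif3j2. Over the group Epinano went from 23 positions to 4 (ratio 0.174, 0.0437 to 0.509), m6Anet from 55 to 34 (0.618, 0.391 to 0.965) and Nanom6A from 286 to 238 (0.832, 0.698 to 0.992). Tombo went from 141 to 126 (0.894, 0.697 to 1.14), MINES from 19 to 10 (0.526, 0.219 to 1.19), ELIGOS from 5 to 0 and xPore from 9 to 10. Paired intervals in this group also lay below 1 for Tombo (0.827 to 0.983) and MINES (0.398 to 0.922).

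The cap-binding, scaffold and helicase factors of the eIF4 family numbered 12 genes with 282 WT or comparison and 281 KO positions. Eif4g2, an eIF4G relative without the eIF4E-binding site, had more positions than any other gene here, 64 in WT or comparison lists and 62 in KO lists. Nanom6A accounted for 54 in each library. Eif4b, a stimulator of the eIF4A helicase, followed with 50 and 45, and Eif4h, a related stimulator, held 23 and 23. The scaffold Eif4g1 held 39 and 31, with MINES going from 5 to 0, Epinano from 20 to 10 and m6Anet from 4 to 6, and had no position in a comparison list. Its paralog Eif4g3 held 0 WT positions and 1 KO position although its exons had 177 RRACH positions.

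The helicase Eif4a1 held 23 WT and 22 KO positions, and its paralog Eif4a2 held 29 in each library. Eif4a3, a helicase of the exon junction complex, held 13 and 8. Its share of listed RRACH positions, 13 of 18, was 72.2% (49.1 to 87.5). Among the cap-binding proteins, Eif4e held 21 and 23, and Eif4e2, which competes with eIF4E for the cap, 20 and 27, with Tombo listing 9 in WT and 21 in KO. Eif4e1b, a relative expressed in germ cells, held 0 WT positions and 10 KO positions (Tombo 7, Epinano 5, MINES 1). Eif4e3 was the only gene of the 54 with no position in any list, with 32 RRACH positions in its exons.

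The binding proteins of eIF4E and the eIF4E transporter gave 74 WT or comparison and 75 KO positions in 4 genes. Eif4ebp1, a repressor of cap-dependent initiation controlled by mTOR, held 13 and 12, with 4 in comparison lists and 2 in all 3 of them. Eif4ebp2, its relative, held 33 and 28. Of the 33, 31 lay in the 3′ UTR, and Epinano went from 8 to 1, m6Anet from 11 to 5 and xPore from 1 to 2. Eif4ebp3 held 4 and 3, and all of its 6 positions also lay in exons of a second annotated gene on the same strand (AC115631.1), so they cannot be given to Eif4ebp3 alone. Eif4enif1, which carries eIF4E into the nucleus, held 24 and 32, with m6Anet going from 0 to 6 and Epinano from 8 to 2.

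The genes for subunit joining and late factors gave 72 WT or comparison and 51 KO positions. Eif5b, the GTPase that joins the subunits, held 26 and 15, with Epinano going from 8 to 0 and Tombo from 20 to 13. Eif6, which keeps the large subunit apart until it is mature, held 16 and 13. Eif5a, named as an initiation factor but acting mostly in elongation, held 19 and 18, and its paralog Eif5a2 held 11 and 5, of which 1 base was shared. The ratio of this group, 0.708 (0.485 to 1.03), was the lowest of the 8 groups and that of start codon selection, 1.05 (0.796 to 1.38), the highest. The eIF4E-binding proteins came next at 1.01 (0.725 to 1.42). Eif1ad alone held 14 WT and 21 KO positions of start codon selection, so its highest rank depends on single genes. Within start codon selection the tools differed: m6Anet and Epinano each went from 31 positions to 12 (0.387, 0.181 to 0.775) and ELIGOS from 7 to 0 (upper bound 0.694), while Nanom6A went from 61 to 70 (1.15, 0.802 to 1.65). The interval of Epinano lay below 1 in 6 of the 8 groups. Over all lists together and counted separately, WT and KO gave intervals that held 1 in each group. Paired by base, the intervals lay below 1 for eIF3 (48 bases in WT or comparison lists alone and 7 in KO lists alone, 0.857 to 0.916), initiator tRNA delivery (28 and 8, 0.792 to 0.939) and the late factors (26 and 5, 0.633 to 0.848), and held 1 in the other 5 groups. These intervals count bases as independent, although bases of a gene share reads and all come from 1 library per condition. They describe the listed bases and not a difference between WT and KO cultures.

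**Figure D2:**
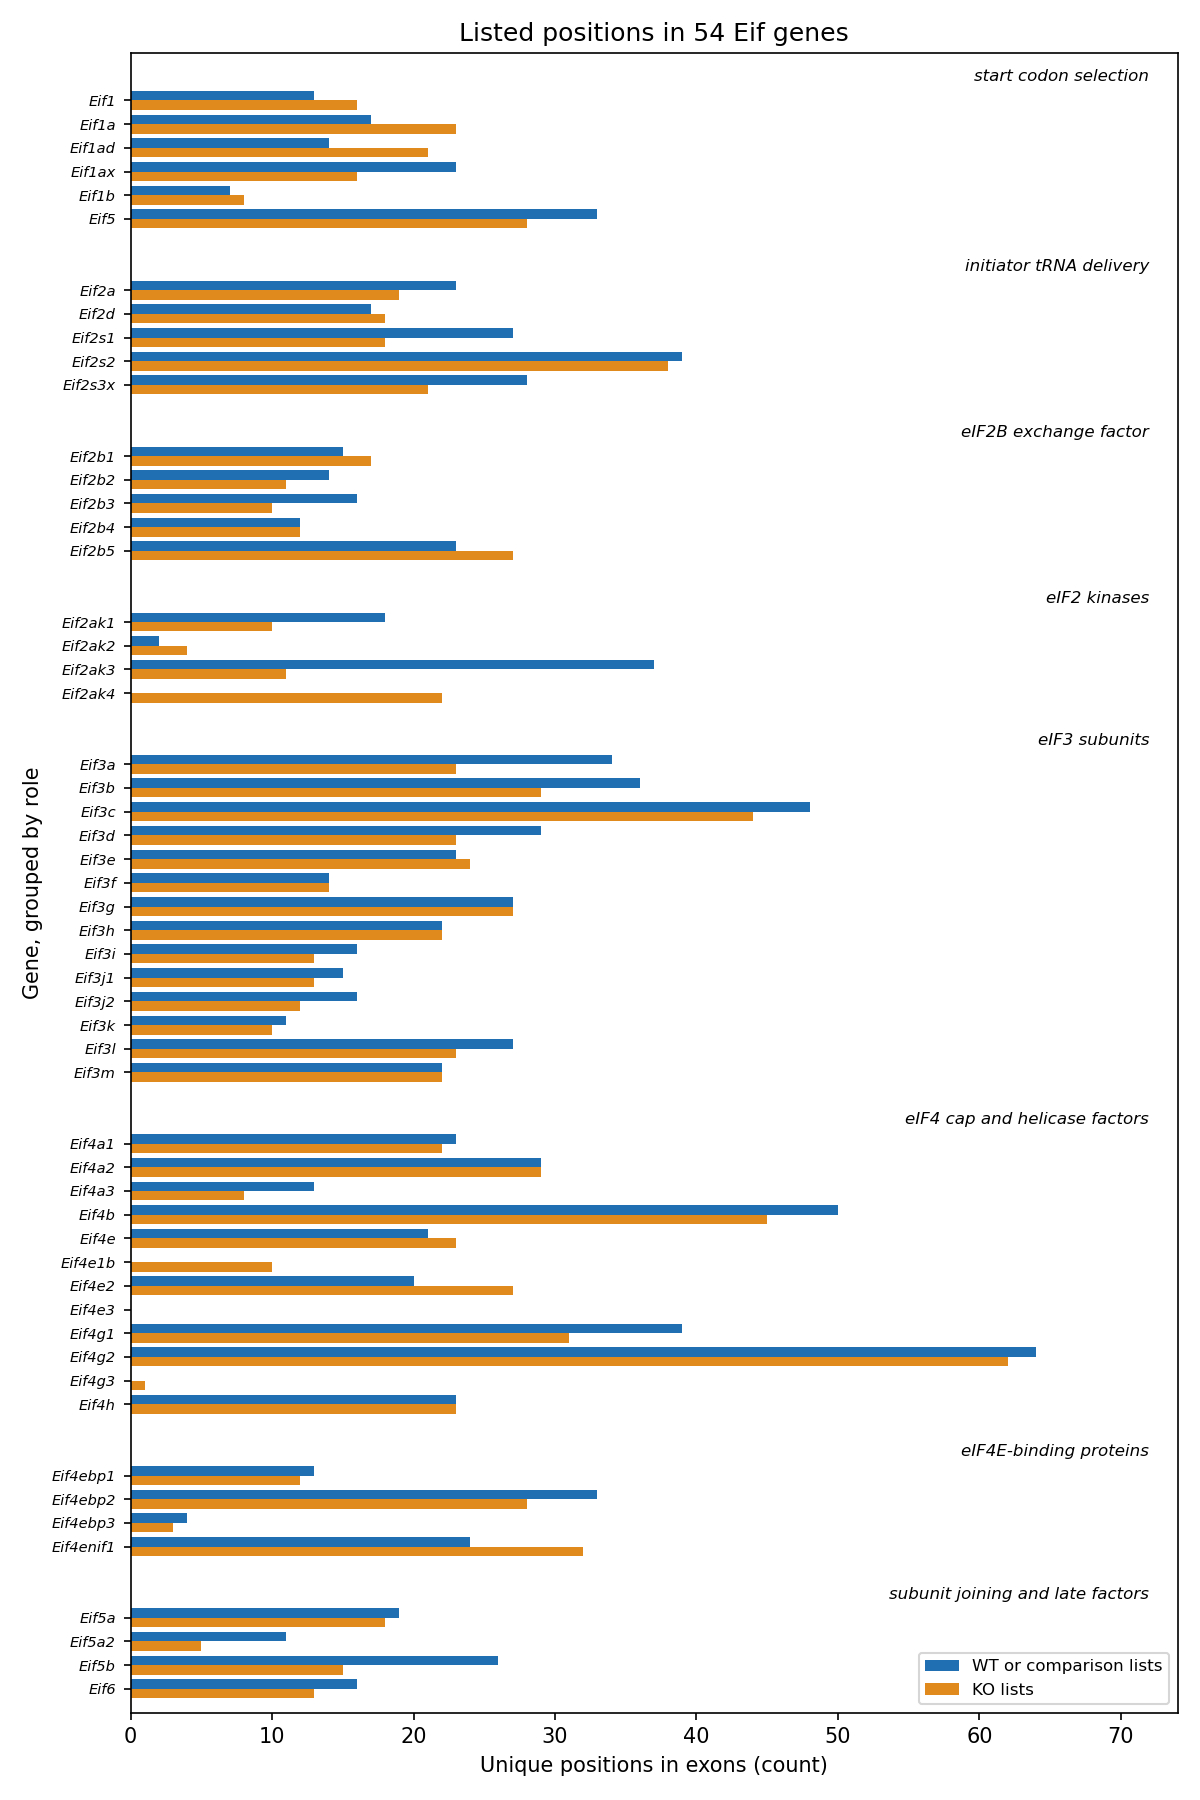
Unique listed positions in the exons of each of the 54 Eif genes (x axis, count) in WT or comparison lists (blue) and in KO lists (orange), with genes on the y axis grouped by role. Eif4g2 has most, 64 and 62, Eif2ak3 has 37 and 11, Eif2ak4 has 0 and 22, and Eif4e3 has none.

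The lists that compare WT with KO directly held 52 positions in 22 initiation factor genes. That is 22 of the 50 genes with a WT or comparison position (44.0%, 31.2 to 57.7), against 16.9% of all protein-coding genes with such a position, and 52 of 1146 positions (4.54%, 3.48 to 5.90), against 2.49%. Nanocompore listed 45 in 21 genes, DiffErr 24 in 15 genes and DRUMMER 17 in 11 genes. All 17 DRUMMER positions were among the 24 of DiffErr (70.8% of these). Nanocompore shared 17 with DiffErr, 37.8% of its own list and 70.8% of the other, and 11 with DRUMMER, 24.4% and 64.7%. Of the 52, 29 were in a single comparison list, 12 in exactly 2 lists and 11 in all 3.

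The 52 comparison positions were found very unequally in the lists of the other tools. The WT list of Nanom6A held all 52 and its KO list 37, and in other protein-coding genes these shares were 89.3% and 48.0%. m6Anet held 40 in WT (76.9%, 63.9 to 86.3, against 80.6% in other genes) and 7 in KO, xPore 23 and 7, ELIGOS 18 and 0, and Epinano 15 (28.8%, 18.3 to 42.3, against 58.1%) and 0. Tombo held 34 and 16, and MINES 7 and 2. Only for Nanom6A (both lists) and Epinano (WT) did the share in other genes lie outside the interval of the initiation factor genes. At least 1 KO list held 44 of the 52 (84.6%, 72.5 to 92.0), and for 30 of these the KO lists were those of Tombo or Nanom6A alone. In other protein-coding genes a KO list held 76.3% of comparison positions.

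The 11 positions in all 3 comparison lists fell in 10 genes, 20% (11.2 to 33.0) of the 50 with a WT or comparison position, against 4.18% of all such protein-coding genes. A gene with more positions has more occasions to hold one. Median WT or comparison positions per listed gene were 21 here and 11 over all protein-coding genes. No share per position was computed for this set, so an excess beyond the number of positions was not tested. Of the 11, 8 lay in the 3′ UTR and 3 in the coding sequence. Between 5 and 9 tools listed each of them in WT or in the comparison. A KO list held 10 of the 11, and for 6 of these it was the list of Tombo or Nanom6A only. Eif2a had the position without any KO list. The KO list of ELIGOS and that of Epinano held none of the 11.

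**Figure D3:**
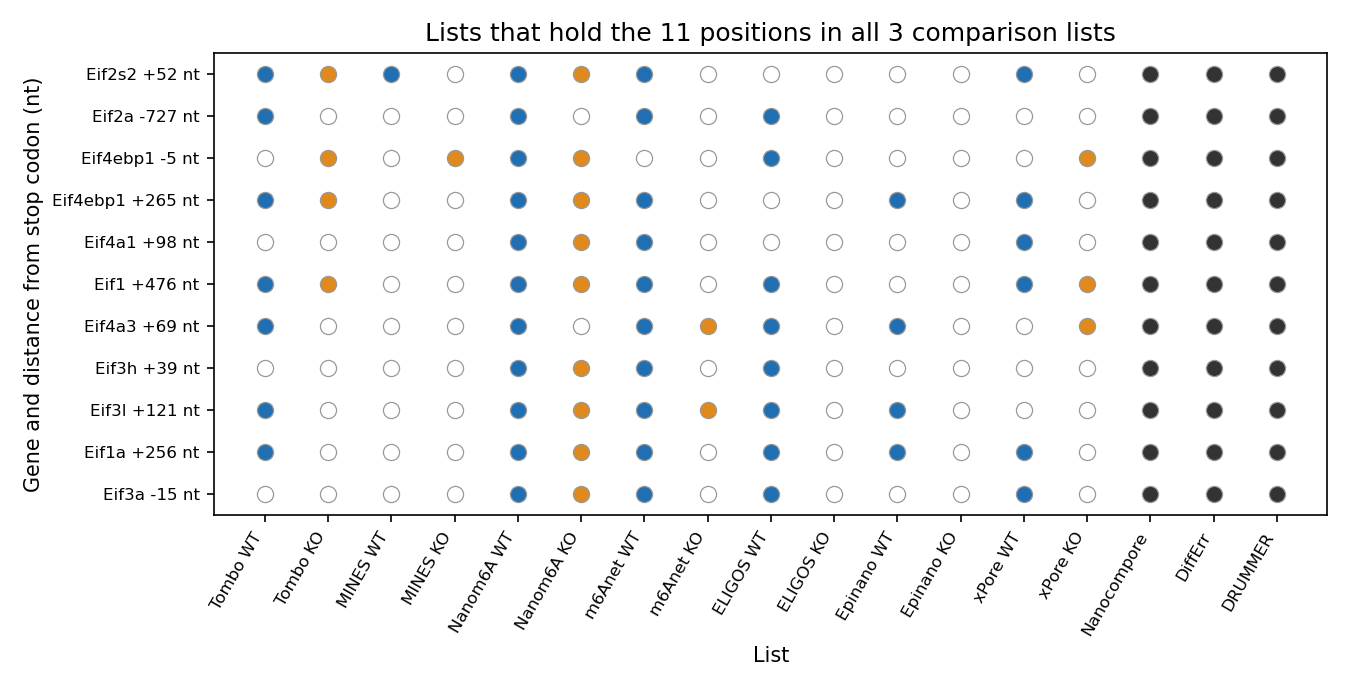
Lists that hold each of the 11 positions found in all 3 comparison lists. Rows are positions by gene and distance from the stop codon's first base (nt, negative in the coding sequence), columns are the 17 lists, and a filled circle means listed (blue WT, orange KO, black comparison); the Eif2a row has no orange circle, and the KO columns of ELIGOS and Epinano are empty.

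The windows around 10 of the 11 positions are shown, and none of Eif1a is printed here. They are given because the listed base and its RRACH 5-mer are what the tools read. Each runs 10 bases to either side of the adenosine in GRCm38 (mm10), 5′ to 3′ on the gene's strand, with the 5-mer in capitals. Eif2s2 (exon 9 of 9), Eif4a1 (exon 11 of 11), Eif1 (exon 4 of 4), Eif4a3 (exon 12 of 12), Eif3h (exon 8 of 8) and Eif3l (exon 13 of 13) carried the position in the 3′ UTR, 52, 98, 476, 69, 39 and 121 nt after the stop codon's first base.
Eif2s2 (chr2:154872665-154872685, minus strand): atttggctGGACAggttacca
Eif4a1 (chr11:69667367-69667387, minus strand): caagggatGGACAtcttgttt
Eif1 (chr11:100321825-100321845, plus strand): gaagtcatGGACAtttagttc
Eif4a3 (chr11:119288466-119288486, minus strand): gttgatatGGACTgtcttctc
Eif3h (chr15:51786681-51786701, minus strand): gagtagacAGACTgttgagag
Eif3l (chr15:79094348-79094368, plus strand): caaatcaaGGACTggatgttt

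Eif4ebp1 had a pair of such positions in exon 3 of 3. At -5 nt from the stop codon the 5-mer GGACA was in 5 lists of WT or comparison (Nanom6A, ELIGOS and the comparison lists) and in 4 KO lists (Tombo, MINES, Nanom6A and xPore). At 265 nt after it, GGACT was in 8 WT or comparison lists and in the KO lists of Tombo and Nanom6A. Eif3a had GGACC at -15 nt, in exon 22 of 22, in 7 WT or comparison lists and in the KO list of Nanom6A. Eif2a had GGACA at -727 nt, in exon 10 of 14, in 7 lists and in no KO list.
Eif4ebp1, coding (chr8:27275094-27275114, plus strand): tttgagatGGACAtttaaggg
Eif4ebp1, 3′ UTR (chr8:27275364-27275384, plus strand): cagcgagtGGACTcagaggag
Eif3a (chr19:60762088-60762108, minus strand): agatggatGGACCacagtacg
Eif2a (chr3:58548588-58548608, plus strand): atcttcgaGGACAaatggaag

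Positions that several tools listed in WT and none in KO were rare. Tools that share steps were counted separately. At least 4 tools and no KO list were found for 12 of the 1146 WT or comparison positions (1.05%, 0.60 to 1.82), against 1.49% over all protein-coding genes. They lay in 8 genes: 3 in Eif2ak3, 2 each in Eif1a and Eif2a, and 1 each in Eif3a, Eif3j1, Eif3j2, Eif4ebp2 and Eif5. In the 3′ UTR of Eif2ak3 the 3 positions lay 68, 96 and 103 nt after the stop codon, each listed by 4 tools. With the KO lists of Tombo and Nanom6A left aside the number rose to 40, and with 3 tools in place of 4 it was 19.

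Of the positions without a KO list, 9 tools listed the one in Eif1a, a GGACA -77 nt from the stop codon, which made it the position with most tools. Its 21-nt window also occurs in transcripts of 5 other protein-coding genes, so its reads may not all belong to Eif1a. Eif1a also had the position of all 3 comparison lists with most tools, an AGACT 256 nt after the stop codon listed by 9 tools in WT or comparison and by Nanom6A in KO, whose window was found in no other gene.

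Next in number of tools came Eif2a with 8 at a GGACA -766 nt from the stop codon, in the same exon as its position above and also without a KO list. Eif4ebp2 and Eif5 each had a 3′ UTR position with 7 tools and no KO list, a GGACA 1799 nt and a GGACT 1241 nt after the stop codon. Among the comparison lists, DiffErr and DRUMMER held the Eif2a and Eif4ebp2 positions, and Nanocompore held that of Eif5. These windows are given for comparison with the set shared by all comparison lists.
Eif2a, upstream position (chr3:58548549-58548569, plus strand): gccctcatGGACAtatattag
Eif4ebp2 (chr10:61431990-61432010, minus strand): caaagaagGGACAtcttcaga
Eif5 (chr12:111545847-111545867, plus strand): agagccttGGACTtcagacac

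The opposite pattern is a base listed in both libraries by the same tools. At 4 tools, the most observed, there were 6 such positions, and at a threshold of at least 2 tools there were 278. No such count was made for other protein-coding genes, so whether these numbers are usual was not tested. The first 5 of the 6 in genomic order lay in Eif6, Eif3g, Eif5a and Eif4g1 in the 3′ UTR and in Eif4a2 in the coding sequence, and no comparison list held any of these. In Eif6, Eif3g, Eif5a and Eif4a2 the tools were Tombo, MINES, Nanom6A and m6Anet, and in Eif4g1 Tombo, Nanom6A, m6Anet and Epinano. The Eif4a2 window also occurs in a processed pseudogene (Gm2999). Their windows are shown as counterparts of the WT-only ones.
Eif6 (chr2:155819840-155819860, minus strand): ccattaaaGGACTgcctccca
Eif3g (chr9:20894375-20894395, minus strand): gcccctcaGGACAgacagaaa
Eif5a (chr11:69916906-69916926, minus strand): cagactggGGACCagcccctt
Eif4g1 (chr16:20692756-20692776, plus strand): cactcttgGGACTgccgtcct
Eif4a2 (chr16:23111204-23111224, plus strand): cgcaaggtGGACTggctcacg

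Few positions drew on many tools. Of the 1146 WT or comparison positions in initiation factor genes, 676 (59.0%) were listed by 1 tool, 314 (27.4%) by 2 and 84 (7.33%) by 3, and none by all 10. In other protein-coding genes 65.2%, 22.1% and 7.09% were listed by 1, 2 and 3 tools. A KO list held 71.5% of the positions with 1 tool and 91.1% of those with 2, and these shares were 52.7% and 68.9% in other protein-coding genes. Nanom6A was the only tool for 363 of its 748 positions and Tombo for 177 of its 530, whereas ELIGOS was alone at 1 of 40 and xPore at 2 of 49.

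Positions of initiation factor mRNAs lay mostly in coding sequence. Shares of coding sequence and UTRs were not computed for other protein-coding genes or for all RRACH positions. Whether they are particular to these mRNAs was not tested. Of the 1144 placed WT or comparison positions, 706 (61.7%) were in the coding sequence, 406 (35.5%) in the 3′ UTR (stop codon included) and 32 (2.80%) in the 5′ UTR. The other 2 of the 1146 could not be placed, and the shares in this paragraph leave them out. KO positions, most of them the same bases, gave 62.3%, 35.1% and 2.56%. Bases in 1 library alone had larger UTR shares: those without a KO list gave 52.5%, 42.0% and 5.46%, and the 150 in KO lists alone 51.3%, 43.3% and 5.33%. The 52 comparison positions differed, with 38 (73.1%) in the 3′ UTR, 14 (26.9%) in coding sequence and 0 in the 5′ UTR.

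Within 200 nt of the stop codon's first base lay 242 of the 1144 placed WT or comparison positions (21.2%, 18.9 to 23.6). The RRACH positions of the same transcripts gave 14.1% (12.9 to 15.5), and WT or comparison positions of other protein-coding genes 22.4% (22.1 to 22.6). KO positions, most of them the same bases, gave 22.1% (19.7 to 24.7). Bases in WT or comparison lists alone gave 15.5% (11.5 to 20.7) and bases in KO lists alone 18.7% (13.2 to 25.7). The intervals of these shares overlap, so no order between them is shown in the initiation factor genes. In other protein-coding genes the shares were 20.9% for WT or comparison lists alone and 15.1% for KO lists alone. All KO positions of other protein-coding genes gave 20.9%. The comparison positions reached 46.2% (33.3 to 59.5), and 50.4% in other genes. By tool, the WT share ranged from 18.6% (11.2 to 29.2) in MINES to 45.0% (30.7 to 60.2) in ELIGOS, with 34.1% (28.2 to 40.5) in m6Anet and 19.8% (16.6 to 23.4) in Tombo. In KO m6Anet gave 24.6% (18.1 to 32.6) and ELIGOS 1 of 10. Windows of 100 and 400 nt gave 11.8% and 37.5%, above the 7.91% and 25.6% of RRACH positions. The RRACH positions were counted whatever their read depth, so whether depth differs near the stop codon was not tested.

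The tools were applied to RRACH bases only, so that every listed position in these genes had such a 5-mer on its strand follows from how the lists were made. GGACT made up 10.1% (8.51 to 12) of WT or comparison positions, 9.09% (7.50 to 10.98) of KO positions and 7.91% of all RRACH positions in the exons. GGACA was the most frequent, with 12.8% (11.01 to 14.9) in WT or comparison, 12.4% in KO and 8.60% of RRACH positions. Among the comparison positions GGACT made up 34.6% (23.2 to 48.2), 18 of 52, GGACA 21.2% (12.2 to 34.0), 11 of 52, and AGACT the same number. At 0 of 52 there were AAACA, the most frequent RRACH 5-mer of the exons (402, 11.04%), GAACA (325, 8.93%) and AAACC (243, 6.68%).

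Each 5-mer can also be read as the share of its occurrences in the exons that a list held. A WT or comparison list held 47.0% (41.5 to 52.5) of GGACA, 40.3% (34.8 to 46.0) of GGACT, 35.0% of AGACA, 32.7% of AAACT, 32.4% of GGACC, 31.9% of AGACC and 31.5% of GAACT. The shares of AAACA (28.4%), AGACT (26.7%), GAACC (25.7%), GAACA (23.4%) and AAACC (19.3%, 14.9 to 24.8) were lower. The KO lists gave a similar order, from 41.8% of GGACA and 33.3% of GGACT to 20.6% of GAACA, with AAACC at 21.4%. Most of these bases were the same in both libraries. Of the GGACT bases 28 were in WT or comparison lists alone and 8 in KO lists alone (ratio of KO to WT 0.828, paired interval 0.761 to 0.929), and of GGACA 33 and 17 (0.891, 0.812 to 0.991). The paired intervals of the other 10 5-mers held 1.

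The base before the 5-mer differed between the comparison positions and the rest, an observation made after the windows were seen. T stood there in 26 of the 52 comparison positions (50%, 36.9 to 63.1), in 257 of the 1092 other placed WT positions (23.5%, 21.1 to 26.1) and in 21.5% (20 to 23.1) of RRACH positions of the transcripts. After the 5-mer T stood in 22 of the 52 (42.3%, 29.9 to 55.8), against 24.8% of the other WT positions and 25.9% of RRACH positions. In KO positions T stood before the 5-mer in 23.9% (21.4 to 26.5).

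Several initiation factor genes have processed copies, which limits the assignment of reads. The share of shared windows was not computed for other protein-coding genes. Of 1291 positions with a full 21-nt window in the transcript, 220 (17.04%) had a window that also occurs in a transcript of another gene, in 54 cases of another protein-coding gene and in 29 of another Eif gene. Eif3j1 and Eif3j2 shared 15 of 19 and 14 of 17 windows with each other. Eif2s2 shared 19 of 39 with a processed pseudogene (Gm9892), Eif3e 15 of 24, Eif3m 14 of 22 and Eif2s3x 13 of 30, mostly with pseudogenes. Eif4a1 shared 12 of 23 and Eif4a2 14 of 29 with pseudogenes, and Eif1 shared 8 of 16, of which 6 were also in Emd transcripts. Further genes named above also shared windows, among them Eif3h (9 of 22), Eif4a3 (6 of 13), Eif1a (7 of 28) and Eif4b (14 of 52). Counts of all these genes are therefore uncertain. None of the 11 positions in all comparison lists had a window found in another gene.

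Other genes of translation, 25 elongation, termination, poly(A)-binding and signalling genes, held 585 WT or comparison and 492 KO positions, a ratio of 0.841 (0.745 to 0.9498). All 25 had a WT or comparison position and 23 had a KO position. Pdcd4, an inhibitor of eIF4A, had 5 WT and 0 KO positions, and Mknk1, a kinase of eIF4E, 13 and 0. Comparison lists held positions in 10 of the 25, among them Eef1a1 (23 positions) and Eef2 (14 positions), the elongation factors, which together had 6 of the list's 8 positions in all 3 comparison lists. Atf4, whose translation rises when eIF2 is phosphorylated, held 13 in WT and 13 in KO and 1 position in all comparison lists. Larp1, a repressor of mRNAs for ribosomal proteins and translation factors, held 66 and 45, and 7 of its positions had at least 4 tools and no KO list.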

How the data were processed

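The deposited files were the authors' lists of m6A positions, 14 of them for WT or KO and 3 for the comparison of WT with KO, as genome coordinates in mm10 (GRCm38) with a transcript or gene name and no score. The authors base-called the reads with Guppy, aligned them to GENCODE transcripts with Minimap2 and ran each tool on RRACH bases above a minimum read depth. They set each tool's cut-off where its F1 scores against miCLIP and miCLIP2 sites summed highest; its value is not in the files. Positions were placed in exons of GENCODE M21 (Python 3.11.15, SciPy 1.17.1, pysam 0.24.0), checked on simulated data, and in transcripts through the listed transcript or else the longest coding one. Sequences were read from the RefSeq GRCm38 genome. Named in full were the 10 genes with most positions, all positions in 3 comparison lists, the 5 with most tools and no KO list, the 5 listed in both libraries by most tools, regulators, and genes without a position. Shares have Wilson and ratios exact binomial 95% intervals. With 1 library per condition no test was run, and whether an interval holds 1 describes the listed bases only. Members and lists were chosen with earlier results of these data known.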

Additional observations from a re-analysis of the deposited data

How the results depend on the processing

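Pairing the bases of WT and KO, chosen after seeing the data, left the ratios as they were but narrowed their intervals, so that 1 fell outside for all genes together (0.922), MINES (0.70), Tombo (0.936), eIF3 (0.879), initiator tRNA delivery (0.851) and the late factors (0.708). With positions counted per line of a list the interval also left out 1 for MINES (ratio 0.677) and xPore (0.632), and without regulators for MINES (0.60). The share near the stop codon moved with the window, as its construction implies, to 11.8% at 100 nt and 37.5% at 400 nt. The number of positions with several tools in WT and none in KO was 12 and became 19 with at least 3 tools and 40 without the KO lists of Tombo and Nanom6A. Under the other alternatives (a position counted once per line, genes taken from the listed name, matches within 5 bp, without regulators, MINES, Tombo, the gene with most positions or positions in a second gene, at least 5 tools, and the longest coding transcript) ratios and shares moved less than their 95% intervals (with the exceptions above for 1) and counts by less than 1.5 times. Each of these alternatives was run for some results only. The ratios of all genes together and of the 8 groups were recomputed under pairing alone. Leaving out windows that occur in another gene, chosen after seeing the data, left 1076 of 1296 positions. With 1 library per condition, no interval covers variation between cultures. Read depth was not in the lists, so a gene with few positions may have had few reads.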
